A study of Mus musculus with 2 samples.

Results

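The interleukins and their receptors were taken as every gene of the probe panel whose symbol begins with Il and a digit, apart from *Il34*, which gave 80 of the 19465 genes measured. Their levels were compared among tumor, the *Arg1*-high rim of the tumor and neural tissue in 2 cerebellar sections, 1 per mouse and each 5 µm thick. Each cerebellum carried a tumor of HP organoids, derived from mammary tumors of mice with the HER2 V777L and PIK3CA H1047R alleles, and both are labelled +cre and as untreated. The sample labels name the organoids HP-F1 for replicate 1 (section 1) and HP-B6 for replicate 2 (section 2), with B6-HP as the cell line of both. Organoid cells are dissociated and injected stereotactically into the cerebellum in this model, at coordinates set for 5-month-old mice, so the tumors are implants rather than spontaneous metastases, and the labels give neither the age of these 2 mice nor the time since injection. Cerebellum without a tumor was not analysed here, so neural tissue of the same sections served as the reference.

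RNA of the formalin-fixed sections was measured by Visium CytAssist, an assay in which ligated probe pairs are captured on barcoded spots and counted as unique molecular identifiers (UMIs). A spot is wider than a cell and mixes the RNA of neighbouring cells. Section 1 held 63986887 UMIs over 3406 spots under tissue and section 2 held 71878333 UMIs over 4017 spots. Tumor spots were those with high epithelial or stromal and low neural marker levels, and neural spots were the reverse. Edge spots held at least 5 UMIs and 500 UMIs of *Arg1* per 1000000 and lay within 4 rings of both other regions. Section 1 gave 704 tumor, 231 edge and 2291 neural spots, and section 2 gave 684, 264 and 2656. Tumor spots had median totals of 55519.5 and 42196.5 UMIs (sections 1 and 2), edge spots of 20571 and 17708.5 and neural spots of 7631 and 9726. Summing the spots of each region within a section gave 6 libraries, and a level is the count per 1000000 UMIs of its library after TMM scaling (CPM). CPM are shares of all RNA read, so fewer cells of a type and less RNA per cell cannot be told apart. Probes differ in efficiency, so levels were compared between regions for each gene and not between genes.

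The 2 tumors stood apart in their markers. Levels of the cell type markers, here and below, are CPM without the TMM scaling. The epithelial and stromal lists also defined the tumor spots, so their joint rise over neural tissue was set by that rule. They are thus no check of the tumor label, but the split between the 2 lists was left free. In section 2 the 7 epithelial markers summed to 10613 CPM in tumor, against 150.5 in neural tissue. In section 1 they summed to 40.3 CPM in tumor and 21.4 in neural tissue, so epithelial markers were nearly absent from that mass. The 6 stromal markers summed to 55839 CPM in the tumor of section 1 and to 717.1 in that of section 2. The 7 T cell markers summed to 295.3 CPM in the tumor of section 1 and to 12.2 in that of section 2. The 8 macrophage markers summed to 20398 and 28196 CPM at the edge of sections 1 and 2, to 12307 and 3649 in tumor and to 3138 and 3927 in neural tissue. *Spp1* and *Apoe* gave 10255 and 6200 CPM of the edge sum of section 1. In that section *Csf1r*, *Mrc1* and *Adgre1* were higher in tumor (415.9, 143.0 and 54.7 CPM) than at the edge (236.3, 24.4 and 34.7). The rest of the list was higher at the edge there, as was the whole list in section 2. The part these cell types take in any level below was not tested. Each section is 1 mouse, so p-values rest on how far the differences between regions vary between 2 sections. The estimate of that spread also draws on all other genes.

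Interleukins are secreted proteins by which immune, stromal and nervous cells signal to each other. IL-1, IL-33 and the IL-36 ligands bind receptors that pair with the accessory chain encoded by *Il1rap*, the IL-18 receptor pairs with *Il18rap*, and all signal through the adaptor MyD88, and *Il1rn* encodes an antagonist that occupies the IL-1 receptor without signalling. Most other members signal through JAK kinases and STAT factors, with chains shared among several receptors, such as *Il2rg*, *Il4ra*, *Il6st* and *Il10rb*. In the brain, macrophages and microglia are a known source of IL-1, while *Il33* is a nuclear cytokine of glial and stromal cells that is released upon damage.

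The promoters of 5 ligands are shown because these were the ligands above the detection limit that rose at the tumor edge. They were chosen, as were the motifs, after the levels had been seen. Sequences are the 250 bases before the transcription start from RefSeq (GRCm38.p6), whose table matched 64 of the 80 members, and where it lists several starts (3 for *Il1rn*, 2 for *Il11*) the one farthest downstream is printed. Capitals mark matches on either strand to the κB motif GGGNNNNNCC or the AP-1 motif TGANTCA.
Il1a promoter, chr2:129309973-129310222, minus strand: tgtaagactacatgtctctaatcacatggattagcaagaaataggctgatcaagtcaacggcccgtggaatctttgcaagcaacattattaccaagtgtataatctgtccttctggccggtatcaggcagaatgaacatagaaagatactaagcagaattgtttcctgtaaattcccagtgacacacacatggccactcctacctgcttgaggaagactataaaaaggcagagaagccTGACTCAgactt
Il1b promoter, chr2:129371140-129371389, minus strand: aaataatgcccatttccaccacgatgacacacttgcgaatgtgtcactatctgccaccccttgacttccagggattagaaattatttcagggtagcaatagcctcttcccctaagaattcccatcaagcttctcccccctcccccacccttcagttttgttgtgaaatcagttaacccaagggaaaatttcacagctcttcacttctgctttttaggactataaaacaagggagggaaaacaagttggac
Il1rn promoter, chr2:24345121-24345370, plus strand: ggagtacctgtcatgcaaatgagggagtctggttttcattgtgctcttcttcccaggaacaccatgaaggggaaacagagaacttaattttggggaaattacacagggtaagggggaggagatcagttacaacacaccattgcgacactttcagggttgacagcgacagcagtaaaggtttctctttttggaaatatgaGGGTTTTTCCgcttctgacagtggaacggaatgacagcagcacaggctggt
Il6 promoter, chr5:30012864-30013113, plus strand: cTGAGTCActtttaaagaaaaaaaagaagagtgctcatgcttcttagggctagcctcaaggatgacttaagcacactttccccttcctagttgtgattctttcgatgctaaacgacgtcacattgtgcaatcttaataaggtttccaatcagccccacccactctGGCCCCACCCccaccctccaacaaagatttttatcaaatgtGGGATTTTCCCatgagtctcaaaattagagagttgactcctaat
Il11 promoter, chr7:4778142-4778391, minus strand: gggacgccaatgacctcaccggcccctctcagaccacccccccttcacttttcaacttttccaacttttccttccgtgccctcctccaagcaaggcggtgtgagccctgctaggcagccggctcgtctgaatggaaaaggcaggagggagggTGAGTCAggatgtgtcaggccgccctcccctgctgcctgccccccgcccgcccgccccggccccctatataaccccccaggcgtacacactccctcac
*Il6* held 3 κB matches, of which those at -44 to -35 and -43 to -34 overlap, and an AP-1 match at -249 to -243 from the start. *Il1rn* held a κB match at -51 to -42, *Il1a* an AP-1 match at -12 to -6 and *Il11* an AP-1 match at -98 to -92, and *Il1b* held neither motif in this window. The matches differ by start: another start of *Il1rn* held both motifs and the remaining start neither, and the other start of *Il11* held 2 overlapping κB matches and no AP-1 match. The κB letters occur in 45.8% of 32851 RefSeq windows of the same length and the AP-1 letters in 6.75%, and a match describes letters only.

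Of the 80 members, 77 passed the filter on low counts, and edgeR's quasi-likelihood test, blocked by section, gave the following calls at a Benjamini-Hochberg adjusted p below 0.05 over 19215 genes. Between tumor and neural spots, 18 members (23.4% of those tested) differed, 13 higher and 5 lower in tumor, against 28.5% of all genes, with 13.8% higher and 14.7% lower. Between edge and neural spots, 14 members (18.2%) differed, 13 higher and 1 lower at the edge, against 14.2% of all genes, with 7.44% higher and 6.72% lower. Between edge and tumor no member was called, as for all genes (0.0%), although 15 members and 2637 genes had an unadjusted p below 0.05. DESeq2 called 5 members and 1099 genes (5.72%) in that comparison. The median log2 fold change of the members was 0.26 for tumor against neural, 0.53 for edge against neural and 0.13 for edge against tumor, where all genes had medians of -0.12, -0.03 and 0.00. Scaled by library size alone, the split in tumor was 11 higher and 8 lower, where 32.8% of all genes were called. Without the section as a block, 12 members and 22.9% of all genes were called in tumor, and the calls of *Il1b*, *Il1r1*, *Il2ra*, *Il7r*, *Il17rc* and *Il20rb* were lost. The tumor and edge comparisons share the neural libraries.

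A level was set against the background of the assay, taken as the 95th percentile of CPM over 1178 olfactory and vomeronasal receptor genes in the same library. This limit ran from 1.64 CPM in the tumor of section 2 to 3.24 CPM in neural tissue of section 1. A fold change against a level under the limit is a fitted value and not a measured size. By this limit, 44 members lay above the limit in both sections of at least 1 region, 13 lay above it in libraries of 1 section or of different regions, and 23 lay at or under it in every library. Among the 77 members tested, 22 (28.6%) were highest at the edge in both sections, against 9.0% of all genes. Further, 8 (10.4%) were highest in tumor and 12 (15.6%) in neural tissue in both sections, against 20.5% and 31.3% of all genes. These counts include members near background. Among the 44 above the limit, 15 were highest at the edge, 6 in tumor and 2 in neural tissue in both sections. The matching shares over all genes above the limit were not taken, so these 3 counts have no reference.

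**Figure D1:**
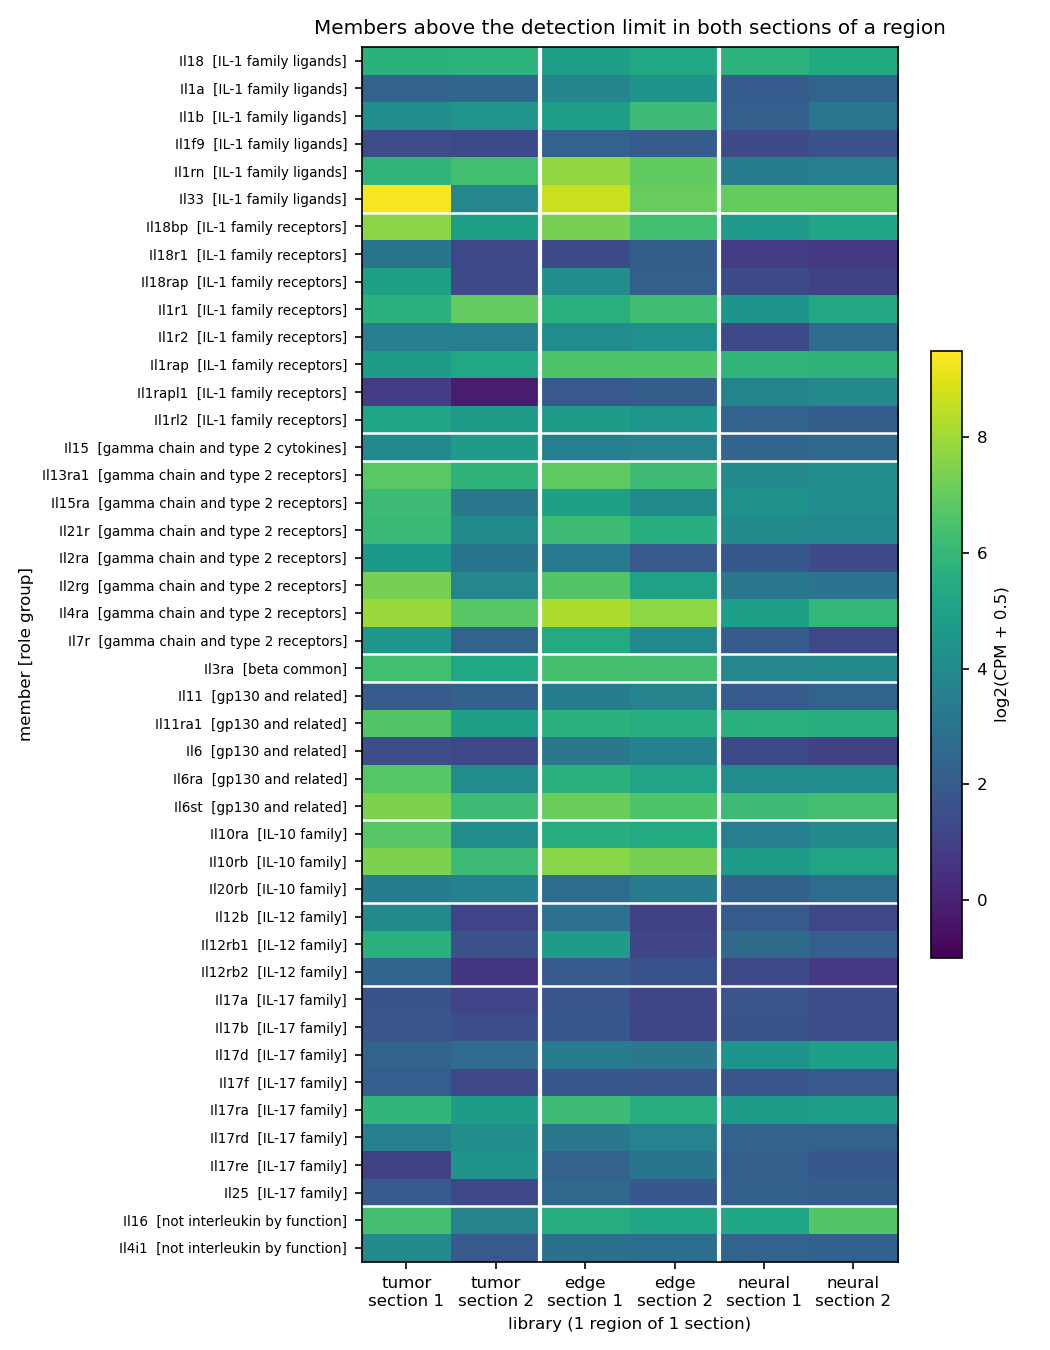
Levels of the 44 members above the detection limit in both sections of a region, as log2(CPM + 0.5) by color, with members in rows by role and the 6 libraries in columns. Rows such as *Il1rn* are brightest in both edge columns, and *Il33* differs most visibly between the tumor columns (663.6 CPM in section 1 and 14.03 in section 2).

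The IL-1 ligands proper and their antagonist rose at the edge. Of 10 ligands of the family, 9 were tested and 3, *Il1a*, *Il1b* and *Il1rn*, were higher at the edge than in neural tissue, while 2, *Il1b* and *Il1rn*, were also higher in tumor. These are 33.3% and 22.2% of the 9, where 7.44% of all genes were higher at the edge and 13.8% in tumor. *Il1b*, the secreted and caspase-processed form of IL-1, was read at 28.0 and 72.6 CPM at the edge of sections 1 and 2, at 16.98 and 22.0 CPM in tumor and at 4.08 and 8.14 CPM in neural tissue. The 7 neutrophil markers summed to 139.4 and 140.7 CPM at the edge, 70.9 and 57.4 in tumor and 37.9 and 49.0 in neural tissue, the same order of regions. Singly, *S100a8*, *S100a9* and *Cxcr2* kept this order in both sections, *Mmp8* in section 1 alone, and *Ly6g* and *Retnlg* in neither. *Csf3r* was nearly equal at the edge and in tumor of section 1 (46.3 and 46.2 CPM). In section 2 its tumor level (14.6 CPM) lay below that of neural tissue (27.2 CPM). *Ly6g* was read at 1.08 and 1.18 CPM at the edge and 2.01 and 1.28 in neural tissue. Both *Ly6g* and *Retnlg* lay under the limit in every library, so their order is not informative. The 4 endothelial markers summed to 326.7 and 390.9 CPM at the edge, 216.6 and 304.2 in tumor and 213.2 and 206.3 in neural tissue. That is again this order, which *Flt1* of that list broke in section 1. The macrophage list kept it in section 1, but in section 2 its tumor and neural sums were close (3649 and 3927 CPM). The part of any of these cell types in the level of *Il1b* was not tested. The 3 regions did not overlap for *Il1b*, with the edge highest in both sections. Its log2 fold change by edgeR was 2.99 ± 0.34 (SE, n = 2 sections) for edge against neural (adjusted p = 0.020) and 1.77 ± 0.32 for tumor against neural (adjusted p = 0.021). *Il1a*, the precursor-active form of IL-1, was read at 13.1 and 21.2 CPM at the edge, 4.36 and 4.87 in tumor and 3.66 and 4.79 in neural tissue. Tumor and neural levels of *Il1a* overlapped, and the edge stood above both. The log2 fold change of *Il1a* was 2.00 ± 0.31 for edge against neural (edgeR, adjusted p = 0.028) and 0.14 ± 0.30 for tumor against neural (adjusted p = 0.72).

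*Il1rn*, the receptor antagonist, was read at 222.1 and 121.9 CPM at the edge, 57.9 and 79.6 CPM in tumor and 10.5 and 11.2 CPM in neural tissue. It thus had the same order of regions as *Il1b*, without overlap between regions. The log2 fold change of *Il1rn* was 3.97 ± 0.41 for edge against neural and 2.67 ± 0.38 for tumor against neural (edgeR, adjusted p = 0.020 and 0.012). Edge spots with at least 1 *Il1rn* UMI made up 88.3% of the edge in section 1 and 73.5% in section 2, against 8.82% and 10.9% of neural spots. These shares also follow the UMIs per spot given above.

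The other IL-1 ligands gave no call. *Il18*, an inflammasome-processed ligand, was read at 53.7 and 55.1 CPM in tumor, 30.1 and 38.3 at the edge and 54.8 and 40.7 in neural tissue. For *Il18*, the edge was the lowest region in both sections, with a log2 fold change of -0.48 ± 0.26 against neural (edgeR, adjusted p = 0.29). *Il33* had no common direction: it was read at 663.6 CPM in tumor, 402.5 at the edge and 127.7 in neural tissue of section 1, and at 14.03, 134.6 and 130.8 CPM in section 2. Neural levels of *Il33* were thus close in the 2 sections and tumor levels far apart. The fitted log2 fold change of tumor against neural was 0.05 ± 1.62 (edgeR, adjusted p = 0.99). *Il1f9*, which encodes the agonist IL-36γ, was read at 4.49 and 3.63 CPM at the edge and at 2.05 to 2.60 CPM elsewhere, with a log2 fold change of 0.77 ± 0.29 for edge against neural (edgeR, adjusted p = 0.16).

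The receptors of the IL-1 family, counted with the soluble inhibitor *Il18bp*, comprised 10 tested members. In tumor 2 were higher and 2 lower than in neural tissue, shares near the 13.8% and 14.7% of all genes, and at the edge 3 were higher, where 7.44% of all genes were. *Il1rl2*, the receptor of the IL-36 ligands, was read at 35.1 and 26.3 CPM in tumor, 27.7 and 22.4 CPM at the edge and 4.5 and 3.75 CPM in neural tissue. Neural tissue lay below the other regions without overlap, and the log2 fold changes of *Il1rl2* were 2.88 ± 0.24 in tumor and 2.60 ± 0.24 at the edge (edgeR, adjusted p = 0.0046 and 0.020). *Il1r1*, the signalling receptor of IL-1, was read at 51.2 and 124.8 CPM in tumor, 50.8 and 78.1 at the edge and 20.9 and 40.1 in neural tissue. Within each section neural tissue was lowest for *Il1r1*, with log2 fold changes of 1.47 ± 0.23 in tumor and 1.13 ± 0.23 at the edge (edgeR, adjusted p = 0.015 and 0.046). *Il1r2*, the decoy receptor, was read at 16.4 and 19.0 CPM at the edge, 10.7 and 11.0 in tumor and 2.02 and 5.85 in neural tissue, under the limit there in section 1. The edge call of *Il1r2* (log2 fold change 2.28 ± 0.49, edgeR adjusted p = 0.049) lay near the threshold, and tumor (1.59 ± 0.48, adjusted p = 0.069) missed it. The edge calls of *Il1r1* and *Il1r2* were each lost under 3 of 11 alternative fits.

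*Il1rap*, the shared accessory chain, was read at 97.4 and 95.8 CPM at the edge, 57.8 and 55.7 in neural tissue and 26.7 and 37.6 in tumor. Its 3 regions did not overlap, with the edge highest and tumor lowest in both sections, but no comparison passed edgeR's test (adjusted p = 0.054 for tumor against neural, 0.093 for edge against neural and 0.070 for edge against tumor). *Il1rapl1*, a neuronal synapse-organising relative of *Il1rap*, was read at 12.7 and 14.9 CPM in neural tissue, 3.36 and 3.83 at the edge and 1.39 and 0.38 in tumor, both under the limit, so that the fitted fall of 4.05 ± 0.66 on the log2 scale (edgeR, adjusted p = 0.016) is no measured size. The related *Il1rapl2* was also called lower in tumor (log2 fold change -1.95 ± 0.40, edgeR adjusted p = 0.027). It was read at 2.90 and 3.60 CPM in neural tissue, under the limit there in section 1. Tumor lay under the limit in both sections (1.18 and 0.53 CPM), so this fall too is no measured size. Neuron markers, summed over 6 genes, had the same order of regions, from 7856 and 8233 CPM in neural tissue to 812.4 and 1218 at the edge and 137.9 and 130.2 in tumor. These markers are part of the score that assigned neural and tumor spots, so their contrast between those regions was set in advance.

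*Il18bp*, which binds IL-18 and blocks it, was read at 204.7, 160.8 and 25.3 CPM in tumor, edge and neural tissue of section 1 and at 31.0, 80.3 and 35.2 CPM in section 2. *Il1rl1*, the receptor of IL-33, was read at 65.7 CPM in tumor, 17.4 at the edge and 1.89 in neural tissue of section 1, and at 0.87, 1.41 and 1.25 CPM in section 2, under the limit in all regions of that section. *Il1rl1* was thus measured above background only in libraries of section 1.

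**Figure D2:**
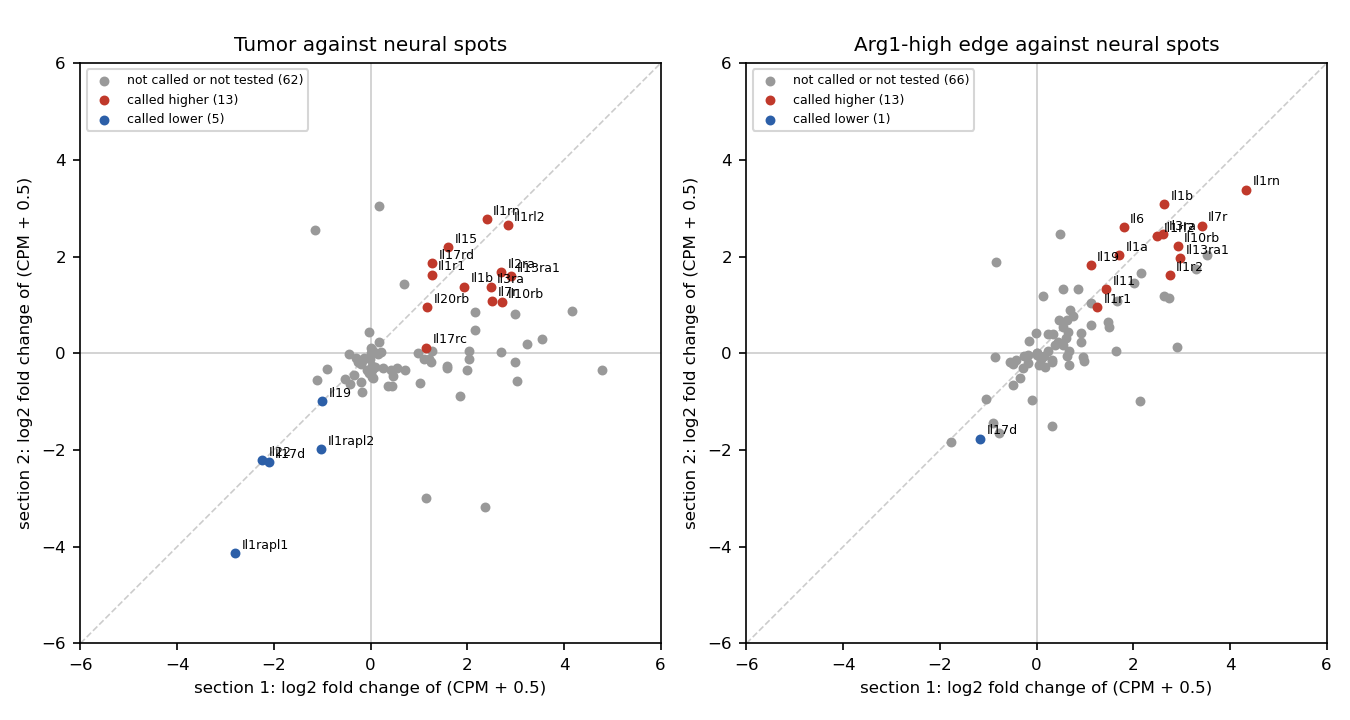
Log2 fold change of (CPM + 0.5) of each member in section 1 (x axis) and section 2 (y axis), for tumor against neural spots on the left and edge against neural spots on the right, with called members named and the dashed line marking equal change. All 14 members called at the edge have the same sign in both sections, whereas several uncalled members in the tumor panel have opposite signs, among them *Il33* (2.37 in section 1 and -3.18 in section 2).

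Of the cytokines that signal through gp130 (*Il6st*) and related chains, with their receptors, 2 rose at the edge and none was called in tumor, among 9 tested. Of all genes, 7.44% were higher at the edge and 13.8% in tumor. *Il6* was read at 8.41 and 11.9 CPM at the edge, from 45 and 59 UMIs, at 2.39 and 1.90 CPM in tumor and at 2.06 and 1.53 CPM in neural tissue. The edge alone stood above the limit in both sections, and the log2 fold change of *Il6* was 2.51 ± 0.37 against neural (edgeR, adjusted p = 0.026). Spots with at least 1 *Il6* UMI made up 16.9% and 15.9% of the edge, so most edge spots held none at this depth. *Il11*, a relative of *Il6* linked to fibrosis, was read at 10.5 and 12.5 CPM at the edge, 3.51 and 4.26 in tumor and 3.53 and 4.69 in neural tissue. Tumor and neural levels of *Il11* overlapped and the edge lay above both, with a log2 fold change of 1.49 ± 0.29 against neural (edgeR, adjusted p = 0.040), a call lost under 3 of 11 alternative fits.

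The receptors for these ligands gave no call. *Il6st*, the shared signalling chain, was read at 172.1 and 72.3 CPM in tumor, 136.3 and 96.8 at the edge and 72.1 and 82.4 in neural tissue. *Il6ra* was read at 106.5 and 16.4 CPM in tumor, 51.8 and 34.7 at the edge and 16.02 and 16.2 in neural tissue, so tumor was the highest region in section 1 and lay at the neural level in section 2. *Il11ra1* was read at 102.7 and 30.3 CPM in tumor, 51.0 and 45.6 at the edge and 50.4 and 46.6 in neural tissue.

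Ligands of the common gamma chain and of type 2 responses were mostly at background. Of 7, only *Il15*, which sustains T and NK cells, lay above the limit in both sections of a region. *Il15* was read at 15.6 and 27.8 CPM in tumor, 11.0 and 12.1 at the edge and 4.79 and 5.66 in neural tissue, and it rose in tumor by 2.01 ± 0.32 on the log2 scale (edgeR, adjusted p = 0.015). *Il4* and *Il13*, the classical inducers of *Arg1* in macrophages, were under the limit in all 6 libraries. *Il4* was read at 0.56 to 1.05 CPM, from 3 to 27 UMIs per library, and *Il13* at 0.49 to 1.12 CPM, from 3 to 26 UMIs. Their log2 fold changes at the edge against neural were -0.62 ± 0.41 and 0.25 ± 0.37 (edgeR, adjusted p = 0.48 and 0.78). A difference of either ligand was thus not detectable at this depth.

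Of their 10 receptors, 7 lay above the limit in both sections of a region, and *Il13ra2*, a decoy receptor of IL-13, stayed under it in all 6 libraries (0.08 to 0.65 CPM). *Il4ra*, the chain that binds IL-4, was read at 297.2 and 208.6 CPM at the edge, 240.4 and 108.2 in tumor and 30.0 and 61.5 in neural tissue. All 3 regions kept this order in both sections, but the log2 fold changes of 2.41 ± 0.59 at the edge and 1.85 ± 0.59 in tumor missed the threshold (edgeR, adjusted p = 0.067 and 0.083). *Il13ra1*, which pairs with it for IL-13, was read at 117.6 and 72.4 CPM at the edge, 112.9 and 56.1 in tumor and 14.7 and 18.2 in neural tissue. It rose in both, by 2.45 ± 0.39 at the edge and 2.26 ± 0.38 in tumor (edgeR, adjusted p = 0.029 and 0.018). *Il7r*, the IL-7 receptor of lymphoid cells, was read at 42.4 and 14.3 CPM at the edge, 22.5 and 4.56 in tumor and 3.53 and 1.88 in neural tissue, under the limit there in section 2. Its log2 fold changes were 3.23 ± 0.44 at the edge and 1.99 ± 0.43 in tumor (edgeR, adjusted p = 0.023 and 0.031). *Il2ra*, the high-affinity IL-2 chain of regulatory and activated T cells, was read at 23.6 and 8.06 CPM in tumor, 9.91 and 3.43 at the edge and 3.20 and 2.19 in neural tissue, under the limit there. It rose in tumor by 2.36 ± 0.40 (edgeR, adjusted p = 0.017). *Il2rg*, the shared gamma chain, was read at 163.2, 103.9 and 8.62 CPM in tumor, edge and neural tissue of section 1 and at 13.9, 31.7 and 7.42 CPM in section 2. The log2 fold change of *Il2rg* in tumor (2.62 ± 0.90) was not called (edgeR, adjusted p = 0.095).

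Among the receptors of the beta common cytokines, *Il3ra* was read at 86.9 and 83.1 CPM at the edge, 79.5 and 38.8 in tumor and 13.8 and 14.7 in neural tissue. It rose at the edge by 2.56 ± 0.35 and in tumor by 1.99 ± 0.35 (edgeR, adjusted p = 0.023 and 0.019). The ligands *Il3* and *Il5* and the receptor *Il5ra* stayed at or under the limit in every library.

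The IL-10 family had 2 higher and 2 lower calls in tumor and 2 higher calls at the edge, among 11 tested members, where all genes had 13.8% higher and 14.7% lower in tumor and 7.44% higher at the edge. *Il10rb*, the chain shared by IL-10, IL-22 and type III interferons, was read at 197.6 and 160.6 CPM at the edge, 170.5 and 72.0 in tumor and 25.7 and 34.2 in neural tissue. It rose by 2.53 ± 0.45 at the edge and 1.91 ± 0.45 in tumor (edgeR, adjusted p = 0.036 and 0.040), with the edge highest in both sections. *Il10ra*, the ligand-binding chain, was read at 108.5 and 17.04 CPM in tumor, 46.5 and 41.8 at the edge and 11.1 and 14.96 in neural tissue and was not called. *Il10* itself lay between 1.25 and 3.57 CPM, above the limit only in the tumor of section 1 and at the edge of section 2. No direction was detectable (log2 fold change 0.42 ± 0.48 at the edge, edgeR adjusted p = 0.62). *Il20rb*, a chain of the IL-20 receptors, was read at 10.1 and 11.8 CPM in tumor and 4.21 and 5.85 in neural tissue (log2 fold change 1.14 ± 0.29, edgeR adjusted p = 0.049), and this call was lost under 6 of 11 alternative fits.

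Both remaining calls of the family concern few UMIs. *Il19* gave 11 and 19 UMIs at the edge (2.06 and 3.83 CPM), 3 and 3 in tumor (0.09 and 0.11 CPM) and 16 and 23 in neural tissue (0.67 and 0.72 CPM). Regions did not overlap, and edgeR called the edge higher (adjusted p = 0.029) and tumor lower (adjusted p = 0.015) than neural tissue, with 1 library above the limit. *Il22* gave 3 and 3 UMIs in tumor against 54 and 75 in neural tissue (2.27 and 2.35 CPM, under the limit), and tumor was called lower (edgeR, adjusted p = 0.0054). DESeq2 gave no adjusted p to *Il19* or *Il22*, so these calls rest on edgeR.

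No member of the IL-12 family was called among 6, where 28.5% of all genes were called in tumor and 14.2% at the edge, against neural tissue. *Il12b*, the subunit shared by IL-12 and IL-23, and its receptor *Il12rb1* were read at 15.8 and 49.7 CPM in the tumor of section 1 and at 1.67 and 2.55 CPM in that of section 2. *Il23a*, the other subunit of IL-23, went the opposite way, with 1.71 CPM in the tumor of section 1 and 18.4 CPM in that of section 2, where the edge held 12.1 and neural tissue 1.78 CPM.

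In the IL-17 family, 2 of 11 members were higher and 1 lower in tumor, and 1 was lower at the edge, counts near the shares of all genes (13.8%, 14.7% and 6.72%). *Il17d*, a family member known from brain tissue, was read at 21.2 and 30.0 CPM in neural tissue, 9.16 and 8.47 at the edge and 4.54 and 5.93 in tumor. The regions did not overlap, and it fell by 1.51 ± 0.30 at the edge and by 2.28 ± 0.30 in tumor on the log2 scale (edgeR, adjusted p = 0.044 and 0.010). *Il17d* was the only member called lower at the edge. *Il17rd*, which also restrains growth factor signalling, was read at 11.4 and 17.9 CPM in tumor, 8.41 and 12.1 at the edge and 4.42 and 4.54 in neural tissue and rose in tumor by 1.67 ± 0.31 (edgeR, adjusted p = 0.022). *Il17rc* was called higher in tumor from 24 and 2 UMIs against 1 and 1 in neural tissue, all under the limit (edgeR, adjusted p = 0.0495), so the call rests on section 1. It was lost under 5 of 11 alternative fits, while DESeq2 gave it no adjusted p, and with an *Arg1* minimum of 1000 it was not tested. *Il17re* was read at 1.56 CPM in the tumor of section 1 and 21.1 CPM in that of section 2 and at 4.08 and 3.16 CPM in neural tissue.

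The ligands *Il17a*, *Il17b*, *Il17f* and *Il25* passed the limit in some libraries, at 1.67 to 5.23 CPM, and none was called. *Il16* and *Il4i1*, a chemoattractant precursor and an amino acid oxidase that share only the name, were not called either. *Il16* was read at 82.5, 46.4 and 37.0 CPM in tumor, edge and neural tissue of section 1 and at 12.3, 35.5 and 101.5 CPM in section 2, in opposite order.

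Around the tumor border, profiles were taken over all spots with enough UMIs by rings of the array, in UMIs per 1000000 without scaling. *Il1a* was read at 16.99 in section 1 and 16.4 in section 2 within 2 rings outside the border, at 4.56 and 5.65 over 8 rings inside and at 3.70 and 3.61 over 16 rings outside. *Il6* was read at 13.0 and 7.77 within 2 rings outside and at 1.40 and 1.59 over 8 rings inside. *Il1b* was read at 33.2 and 41.3 within 2 rings outside and at 3.25 and 3.83 over 16 rings outside. For these 3 ligands the first 2 rings outside the border held the highest value in both sections. *Il1rap* was highest at 3 to 4 rings outside in section 1 (121.8) and at 1 to 2 rings outside in section 2 (97.2). *Il1rn* peaked on either side of the border, at 175.8 outside in section 1 and at 93.7 inside in section 2. *Il4ra* did not fall back to its far level at once: in section 2 it was 91.5 at 9 to 16 rings outside and 29.2 beyond 16 rings, and in section 1 29.4 and 16.5. *Il17d* had the reverse profile, with 14.6 and 14.7 within 2 rings outside and 23.8 and 32.6 beyond 16 rings.

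**Figure D3:**
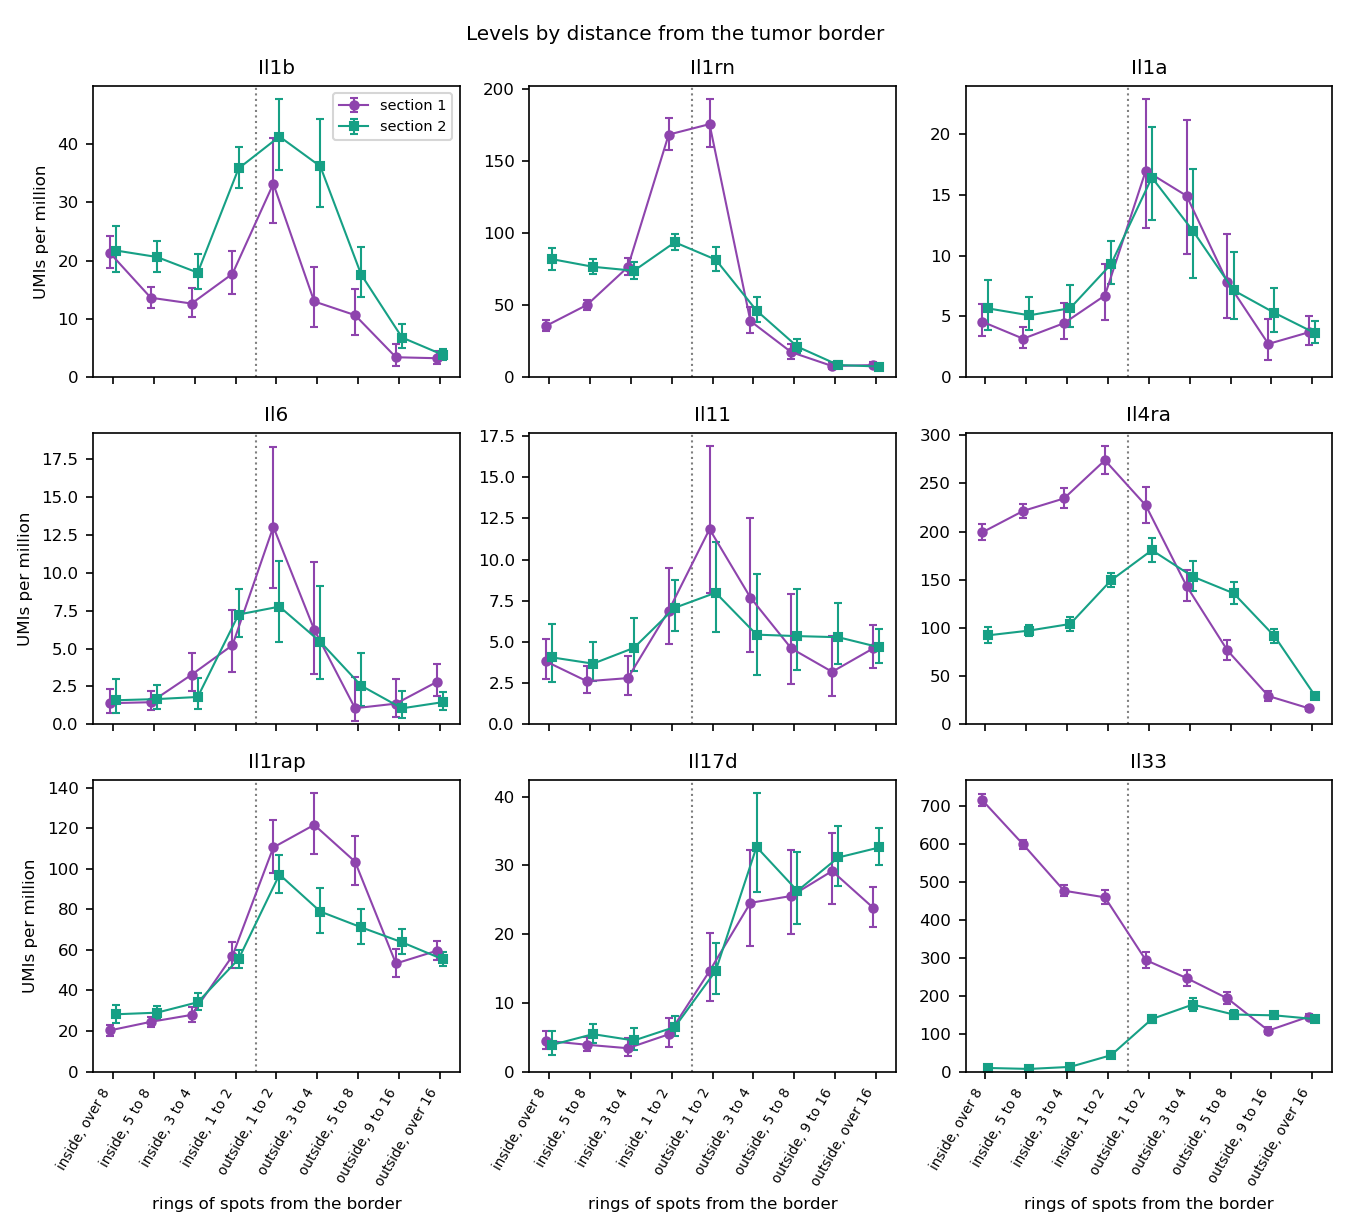
UMIs per 1000000 (y axis, from 0) of 9 members by rings of spots from the tumor border (x axis, the dotted line marks the border), with 1 line per section and bars for 95% exact Poisson intervals of counting error alone. *Il1b*, *Il1a*, *Il6* and *Il11* are highest just outside the border in both sections, *Il17d* is lowest inside the tumor, and *Il33* is highest deep inside in section 1 (715.4) and is at 9.36 there in section 2.

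The tumors of the 2 sections differed for a share of the members. With 1 tumor each, this is a description without a test. With levels under the limit set to the limit of their library, 8 of the 77 members tested (10.4%) differed by 8 times or more in CPM, against 3.41% of all genes counted the same way. Of these, 7 were higher in section 1: *Il33* by 47.3 times, *Il12rb1* by 19.5, *Il18rap* by 15.2, *Il2rg* by 11.7, *Il12b* by 9.43 and *Il15ra* by 8.60, and *Il1rl1* by at least 40.05 times, since it lay under the limit in section 2. *Il12b* (1.67 CPM) and *Il18rap* (2.02 CPM) lay close above the limit of 1.64 CPM in the tumor of section 2. Both were under the 99th percentile of the same background genes (2.27 CPM), so their folds are ratios to a level near background. *Il2rb*, *Il2rg*, *Il12rb1*, *Il15ra* and *Il18rap* encode receptor chains of T and NK cells, among other cells. *Il2rb*, at 6.34 and 0.34 CPM, and *Il23a*, at 1.71 and 18.4 CPM, were at least 3.86 and 7.16 times apart, as their lower level lay under the limit. The T cell list stood at 295.3 against 12.2 CPM and the stromal list at 55839 against 717.1 CPM in the same tumors. The NK (29.7 against 2.46 CPM) and B and plasma cell lists (149.3 against 14.3) were also higher in section 1. So were the dendritic (99.6 against 23.4) and macrophage lists (12307 against 3649). The mast (33.5 against 408.2) and endothelial lists (216.6 against 304.2) were lower there. *Kit* alone gave 26.8 and 405.0 CPM of the mast sums of sections 1 and 2. Every other mast marker was read at 1.84 CPM or less in both tumors and was higher in section 1. The part of any of these cells in the member levels was not tested. *Il17re* was higher in section 2, by at least 8.2 times, as was the epithelial list, at 10613 against 40.3 CPM.

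**Figure D4:**
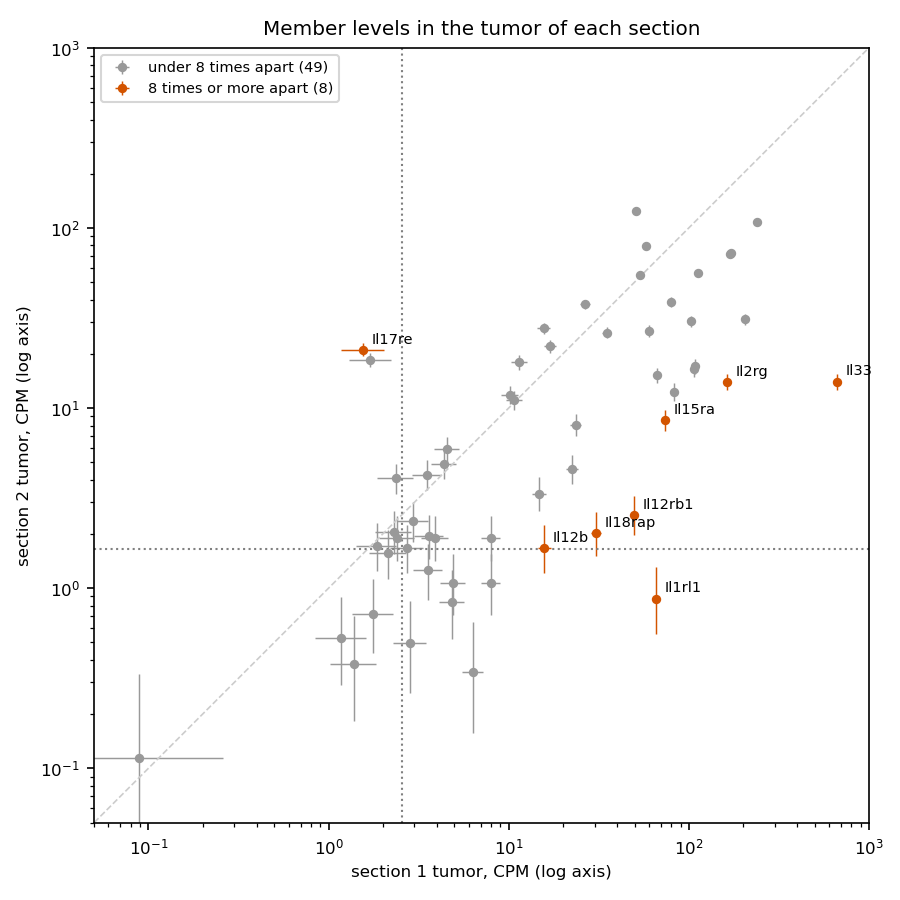
CPM in the tumor of section 1 (x axis) and of section 2 (y axis), both on log axes, for the 57 members above the detection limit in any library, with bars for 95% exact Poisson intervals, dotted lines at the limit of each library and a dashed line at equal level. Named are the 8 members that differ by 8 times or more with levels under a dotted line moved up to it, and 7 of them lie on the section 1 side.

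**Figure D5:**
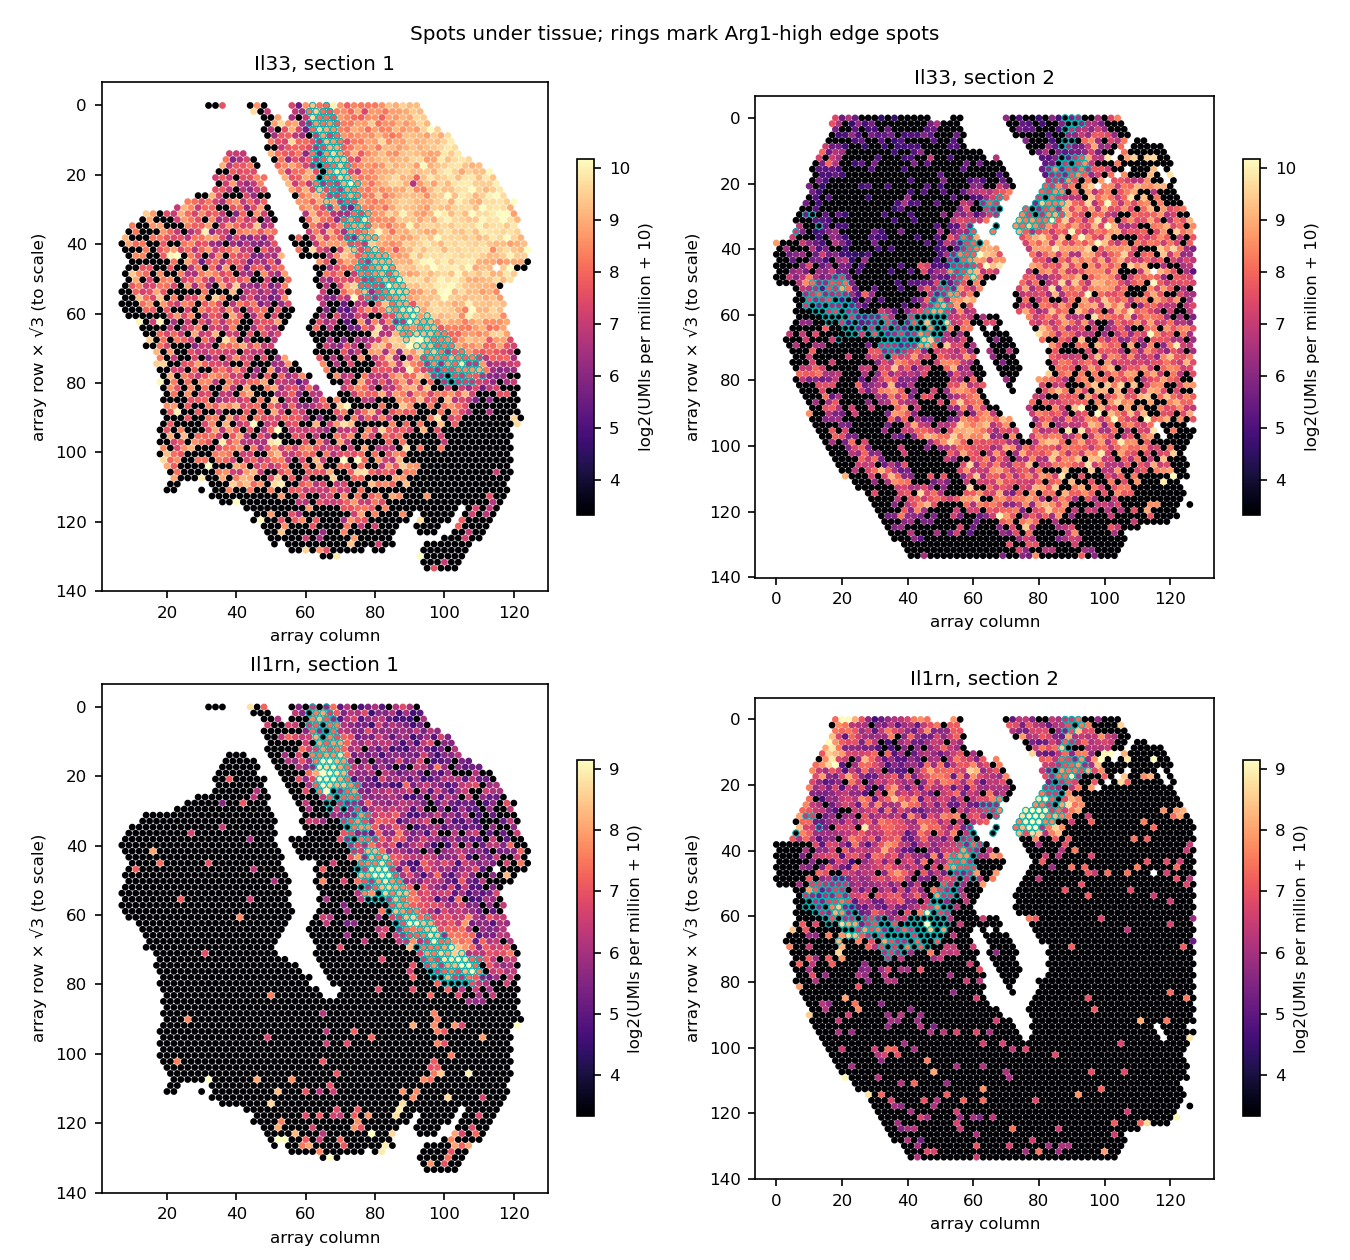
UMIs per 1000000 of *Il33* (top) and *Il1rn* (bottom) in each spot of section 1 (left) and section 2 (right), as log2(value + 10) by color at the spot's place on the array, with edge spots ringed. *Il33* fills the tumor of section 1 (663.6 CPM over the region) and leaves that of section 2 dark (14.03 CPM), whereas *Il1rn* is bright along the edge of both sections (222.1 and 121.9 CPM).

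Of 36 further genes of the pathways, 35 were tested. In tumor 11 and at the edge 15 were higher than in neural tissue by edgeR's test (31.4% and 42.9%), and none was lower, where 13.8% and 7.44% of all genes were higher. *Stat6*, the factor that acts downstream of *Il4ra*, was read at 74.8 and 62.1 CPM at the edge, 103.7 and 81.3 in tumor and 11.2 and 15.3 in neural tissue, and rose by 2.36 ± 0.28 at the edge and 2.80 ± 0.28 in tumor on the log2 scale (edgeR, adjusted p = 0.021 and 0.0060). *Myd88*, the adaptor of IL-1 receptors, rose by 1.67 ± 0.31 at the edge and 1.72 ± 0.31 in tumor (edgeR, adjusted p = 0.037 and 0.019). *Casp1*, which cleaves the IL-1β precursor, was read at 102.1 and 38.1 CPM at the edge, 154.1 and 47.5 in tumor and 10.6 and 8.76 in neural tissue. *Csf2rb*, the beta chain that pairs with *Il3ra*, was read at 14.95 and 16.5 CPM at the edge and 1.77 and 2.03 in neural tissue, where it was under the limit. Its rise at the edge of 3.04 ± 0.61 (edgeR, adjusted p = 0.044) is thus a fitted value and no measured size. *Osm*, a gp130 ligand of macrophages and neutrophils, was read at 19.8 and 25.2 CPM at the edge and 3.62 and 3.47 in neural tissue (edgeR, adjusted p = 0.021). Its receptor *Osmr* rose by 1.28 ± 0.23 at the edge and by 1.31 ± 0.23 in tumor (edgeR, adjusted p = 0.035 and 0.018). *Osmr* was read at 64.7 and 93.0 CPM at the edge and at 72.0 and 86.8 in tumor. *Socs3*, a feedback inhibitor of STAT3, rose at the edge by 2.14 ± 0.43 (edgeR, adjusted p = 0.045), at 275.5 and 314.9 CPM against 36.5 and 115.4 in neural tissue.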

How the data were processed

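The authors counted barcodes and UMIs of 2 formalin-fixed sections with Space Ranger 2.1.1 on mm10, and deposited unnormalized UMI counts for each gene in each tissue-covered spot. Spots with under 500 UMIs or 10 genes were left out. Regions were rebuilt here from marker genes and the authors' clusters were not used. Neural and tumor marker scores were split by Otsu's method in each section, tumor spots had to form patches of at least 20, and *Arg1*-high spots away from the edge and spots of neither class entered no comparison. *Arg1* thus defines the edge, and no member was used for a region.

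UMIs were summed by section and region (6 libraries of 5103097 to 37526784 UMIs, TMM factors of 0.904 to 1.20) and tested with edgeR 4.0.16 in R 4.3.3 (filterByExpr, robust glmQLFit, glmQLFTest, section as a block, 2 residual degrees of freedom, Benjamini-Hochberg adjustment over 19215 genes). Regions of a section come from 1 mouse, and the block took the common dispersion from 0.161 to 0.0987. The SE of an edgeR fold change is its absolute log2 value divided by the square root of the F statistic, whose spread estimate is shared across genes. Fold changes within a section were taken after adding 0.5 CPM, and counting intervals are exact Poisson intervals at 95%. These cover counting error alone. DESeq2 1.42.0 was an alternative, and summaries used Python 3.11.15, numpy 2.4.6, scipy 1.17.1, pandas 2.3.3 and matplotlib 3.10.9. On simulated counts of 19215 genes for tumor against neural, the test found 50 of 50 genes raised by 2 and 48 of 50 lowered by 2 on the log2 scale, 25 of 50 raised by 1 and 10 of 50 lowered by 1, with 6 false calls. The simulated dispersion was set lower than the 0.0987 fitted here, and every fold was the same in both sections. Only genes with higher counts were changed, so recovery in these data, and of members with few UMIs, was not measured.

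Named are members called whose sign was shared by both sections, those 8 times or more apart in CPM between the tumors, the 5 with the highest mean CPM of each region and 15 listed cytokines and receptors, with others by counts or as examples. Members, marker lists and pathway lists were chosen with earlier results of these data known. The alternatives were other scalings, no filter, no block, DESeq2, k-means regions, *Arg1* minimums of 250 and 1000, a minimum of 1000 UMIs, neural spots over 4 rings from tumor and leaving out a section.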

Additional observations from a re-analysis of the deposited data

How the results depend on the processing

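In edge against tumor, where edgeR called no member, 1 member was called with RLE factors and 1 when scaled by library size alone (*Il19* in each), 2 without the replicate block (*Il19* and *Il1rap*) and 5 by DESeq2 (*Il1a*, *Il6*, *Il11*, *Il1rap* and *Il1rapl1*). Of all genes, these fits called 1.17%, 1.65%, 1.99% and 5.72%, while 77 members were tested in each. Scaling by library size alone moved the all-gene median log2 fold change from -0.12 to -0.44 in tumor and from -0.03 to -0.26 at the edge, against neural. Without the replicate block, 12 members were called in tumor, all among the 18 called with it, and 12 at the edge, of which 11 were among the 14. That fit called 22.9% and 12.3% of all genes. DESeq2 called 24 and 20 members, and 35.3% and 23.2% of all genes. At the edge the calls of *Il1r1*, *Il1r2* and *Il7r* were lost without the replicate block, that of *Il1r1* also with RLE factors and by library size, that of *Il1r2* also with k-means regions and the *Arg1* minimum of 250, and that of *Il11* when scaled by library size alone and for *Arg1* minimums of 250 and 1000. The edge calls of *Il1a*, *Il1b*, *Il1rn*, *Il6*, *Il10rb*, *Il13ra1*, *Il3ra*, *Il1rl2* and *Il17d* were kept under all 11 alternative fits. A minimum of 10 UMIs per library put 76 members above the limit in place of 44, with a range of 50 to 52 when either section was left out. Of the 80 members, 28 were higher in tumor than in neural spots in both sections by CPM, 55 within section 1, 31 within section 2 and 71 in raw UMIs per spot. The same shares over all genes were not taken, so these counts give no result about the members. Raw UMIs per spot also follow the higher totals of tumor spots. With 1 section left out there are no residual degrees of freedom, so counts of calls could not be recomputed.

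No called fold change reversed. Uncalled ones did, and the cause was not tested. Tumor against neural, scaling by library size alone gave -0.058 for *Il10*, -0.047 for *Il11ra1*, -0.14 for *Il18*, -0.18 for *Il1a*, -0.27 for *Il33* and -0.067 for *Il6*, the *Arg1* minimum of 250 gave -0.10 for *Il1a*, -0.018 for *Il33* and -0.023 for *Il6*, that of 1000 gave -0.051 for *Il33*, and *Il11* came to 0.030 with RLE factors and 0.029 with DESeq2. Edge against neural, library size gave -0.016 for *Il15ra* and -0.032 for *Il2rb*. Edge against tumor, *Il2rg* came to -0.058 with RLE factors, -0.38 without the replicate block, -0.057 with DESeq2, -0.068 with k-means regions, -0.031 with the *Arg1* minimum of 250 and -0.032 with *Arg1*-high spots away from the edge kept, an alternative chosen after seeing the data. In the same comparison *Il10* came to -0.054 with the minimum of 250 and -0.016 with those spots kept, *Il17rc* to 0.025 with the minimum of 250, *Il1rapl2* to -0.24 with that of 1000, *Il33* to -0.34 without the replicate block, and library size gave 0.067 for *Il16* and 0.10 for *Il6st*.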

Other observations

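*Arg1*-high spots away from the edge numbered 9 in section 1 and 147 in section 2, and those of section 2 lay mostly within the tumor (median distance of 0 rings). In UMIs per 1000000 without scaling, *Il6* was read at 8.26 in these 147 spots (44 UMIs), against 1.74 in the remaining tumor and 11.6 at the edge of section 2. *Il1rn* was read there at 110.1, against 72.6 and 118.4, and *Il1b* at 21.6, against 20.1 and 70.5. *Il6* and *Il1rn* of these spots were thus closer to the edge than to the remaining tumor, and *Il1b* was closer to the tumor. These values come from 1 section and were not tested.

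Spots assigned to no region numbered 80 in section 1 and 248 in section 2. *Il1b* was read at 20.9 and 21.7 UMIs per 1000000 in them and *Il4ra* at 137.0 and 118.5, which in both sections lay between the neural and the edge levels of that section.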
